A study of Mus musculus with 16 samples.

Results

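Of the 16 libraries in the series, 2 carried abundant microglial messenger RNA. They were replicate 1 of the co-cultures of fibril-loaded neurons with microglia and replicate 1 of the co-cultures of untreated neurons with microglia, and they are called the loaded and the untreated rich library. They were chosen by their levels of C1qa and Csf1r, which were high there and low in the other 6 co-culture libraries, called poor, so everything said of rich against poor libraries is a description of these 8 libraries and carries no test. The groups were fibril-loaded neurons with microglia (4 libraries, 1 of them rich), untreated neurons with microglia (4 libraries, 1 of them rich), fibril-loaded neurons alone (4 libraries) and untreated neurons alone (4 libraries). All were primary cortical neurons of C57BL/6 mice, prepared from embryos and kept for 14 days in culture. Loaded neurons had received 0.1 µM of fluorescently labelled α-synuclein fibrils, aggregates of a presynaptic protein, during 16 h and were washed. Co-cultures then ran for 6 h. The series asks what microglia do for neurons through tunnelling nanotubes, thin membrane bridges between cells. The labels call every library neurons and do not say how neurons and microglia were separated before RNA isolation, and nothing in them ties the libraries of a group to different cultures or embryos. The p-values given here therefore rest on a spread between libraries that may be technical.

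Microglia are the resident macrophages of the brain. They depend on signals through the receptor Csf1r, engulf debris and synapses with the help of complement and of Fc and Trem2 receptors that signal through the adaptors Tyrobp and Fcer1g, digest the cargo in lysosomes with cathepsins, and release cytokines and chemokines when they meet microbial or aggregated material. Neurons lack most of these transcripts, which is why such transcripts in a library labelled as neurons can be told from neuronal RNA by name. In bulk libraries, a difference in the number of cells of a type and a difference in RNA per cell cannot be told apart.

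Total counts were 6511516 in the loaded and 11005472 in the untreated rich library, and 6740089 to 11947749 in the poor libraries. Levels are given as CPM, counts relative to the scaled library total. Because the kit reads 3′ ends, CPM does not scale with gene length, but the primed site differs between genes, so levels are compared between libraries and not between genes. Detection was patchy: 666 genes in the loaded and 515 in the untreated rich library had a count of 0 although they averaged at least 100 counts in the other libraries, against 41 to 396 in the poor libraries and 93 to 524 in neurons alone. The share of Rn45s, a ribosomal RNA precursor, was 18.5% and 13.2% of counts in the loaded and untreated rich library, 9.35% to 16.5% in poor libraries and 11.6% to 26.8% in neurons alone. Library codes in the titles fall into 4 runs of neighbouring numbers, each holding 1 library of every group. Both rich libraries belong to the first run, as do replicate 1 of loaded and of untreated neurons alone. What a run of codes stands for is not given in the sources used here.

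Of 14577 genes that passed the filter on low counts, 93 were gained in the rich libraries, which is 0.638%. A gene counted as gained when the lower of the 2 rich libraries had at least 5 CPM and at least 4 times the level of the highest poor library. Both rich libraries lay above all 6 poor ones for 831 genes (5.7%). Of the 93 gained genes, 32 stood on lists of microglial genes, which were chosen with earlier results of these data known. The share of listed genes among all 14577 was not counted. Of the 93, 22 were at 0 in all 6 poor libraries, and 11 of these were also at 0 in all 8 libraries of neurons alone. In 75 of the 93, the lower rich library exceeded every library of neurons alone. Picking genes for high rich levels favours this, and it was not counted over all genes. The median log2 difference of rich minus poor libraries over the 93 was 6.27, or 6.17 with genes at 0 in all poor libraries set at the limit that 3 counts per library allow (called with bounds from here on), against -0.25 over all genes. Counts and medians over gene lists cover members that passed the filter, some of them only through the rich libraries, and are descriptions. Of all 14577 genes, 5871 were higher and 8425 lower in the rich than in the poor libraries, the background for counts of list members. Nearest inside the threshold were Lpl, Abtb1 and Slc16a10, whose lower rich level was 4.05, 4.09 and 4.15 times the highest poor level. Just outside were Dab2, Igf1 and Ntn1, at 3.84, 3.80 and 3.79 times.

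The markers C1qa, Csf1r, Ctss and Laptm5 describe the rich libraries. Csf1r, the receptor for the growth factors that keep microglia alive, had 291 CPM in the loaded and 64.8 CPM in the untreated rich library, against 0 to 0.333 CPM (median 0) in the 6 poor libraries and 0 to 6.88 CPM (median 0.0582) in the 8 libraries of neurons alone. Ctss, cathepsin S, a cysteine protease of phagocyte lysosomes, had 124 CPM in the loaded and 156 CPM in the untreated rich library, against 0 to 8.15 CPM (median 1.34) in the 6 poor libraries. Laptm5, a lysosomal membrane protein of blood-lineage cells, had 153 CPM in the loaded and 80.1 CPM in the untreated rich library, against 0 to 13.6 CPM (median 0.0706) in the 6 poor libraries. For each of these the 2 rich libraries stood clear of all 14 others, and among the poor libraries replicate 3 of the loaded co-cultures was the highest for all 3. C1qa, the A chain of the complement initiator C1q, had 225 CPM in the loaded and 63.0 CPM in the untreated rich library, against 0 to 13.6 CPM (median 1.06) in the 6 poor libraries, the same library again being the highest of the poor.

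The 3 genes of the C1q chains neighbour each other on chromosome 4 of GRCm38 (the assembly also called mm10), with C1qb at 136880126 to 136886200, C1qc at 136889801 to 136892936 and C1qa at 136895916 to 136898844 in the RefSeq annotation. C1qb had 109 CPM in the loaded and 43.8 CPM in the untreated rich library, against 0 to 0.915 CPM (median 0) in the 6 poor libraries, and was gained. C1qc had 112 CPM in the loaded and 95.3 CPM in the untreated rich library, but 0 to 33.6 CPM (median 3.56) in the 6 poor libraries, and was not. The rich libraries were the highest for each chain, and the poor libraries spread widest for C1qc, where untreated co-culture replicate 3 reached 33.6 CPM.

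Spi1 encodes PU.1, the transcription factor that specifies the macrophage lineage and binds sequences built around GAGGAA. Its level was 28.2 CPM in the loaded and 27.8 CPM in the untreated rich library and 0 in all 6 poor libraries and all 8 libraries of neurons alone, at least 90.5-fold higher in the rich than in the poor libraries with 3 counts per library as the floor. Such folds, here and below, set the mean CPM of the side with counts against that floor. Single libraries can differ by less. Because the gained genes were high together with Spi1 in the same 2 libraries, the 250 bases before the start of each gene were searched on both strands for GAGGAA and for the longer GAGGAAGT, in RefSeq promoters of GRCm38 that were at hand for 70 of the 93 gained genes. GAGGAAGT, each match of which also counts for GAGGAA, was found for 5 of these 70 (7.14%), among them Spp1 and Inpp5d, against 297 of 11547 filtered genes (2.57%) and 2.79% of all promoters in the table. GAGGAA was found for 26 of the 70 (37.1%), against 25.4% of the filtered genes and 25.9% of all promoters. The 4 stretches shown carry a match close to genes that the account below turns on, with the match in capitals, written 5′ to 3′ on the gene's strand. They lie at chr5:104434972-104435031, plus strand for Spp1, chr1:87620266-87620311, plus strand for Inpp5d, chr4:136886201-136886256, minus strand for C1qb and chr3:95526596-95526653, plus strand for Ctss.
Spp1: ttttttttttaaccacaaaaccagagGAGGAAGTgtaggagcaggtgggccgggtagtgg
Inpp5d: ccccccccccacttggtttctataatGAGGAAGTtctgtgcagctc
C1qb: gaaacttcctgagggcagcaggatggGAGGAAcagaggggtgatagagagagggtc
Ctss: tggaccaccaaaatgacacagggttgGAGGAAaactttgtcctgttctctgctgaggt
A match is a string of letters and not a binding site, and among the lost genes described further on GAGGAA was found for 20 of 65 (30.8%) and GAGGAAGT for 4 of 65 (6.15%).

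**Figure D1:**
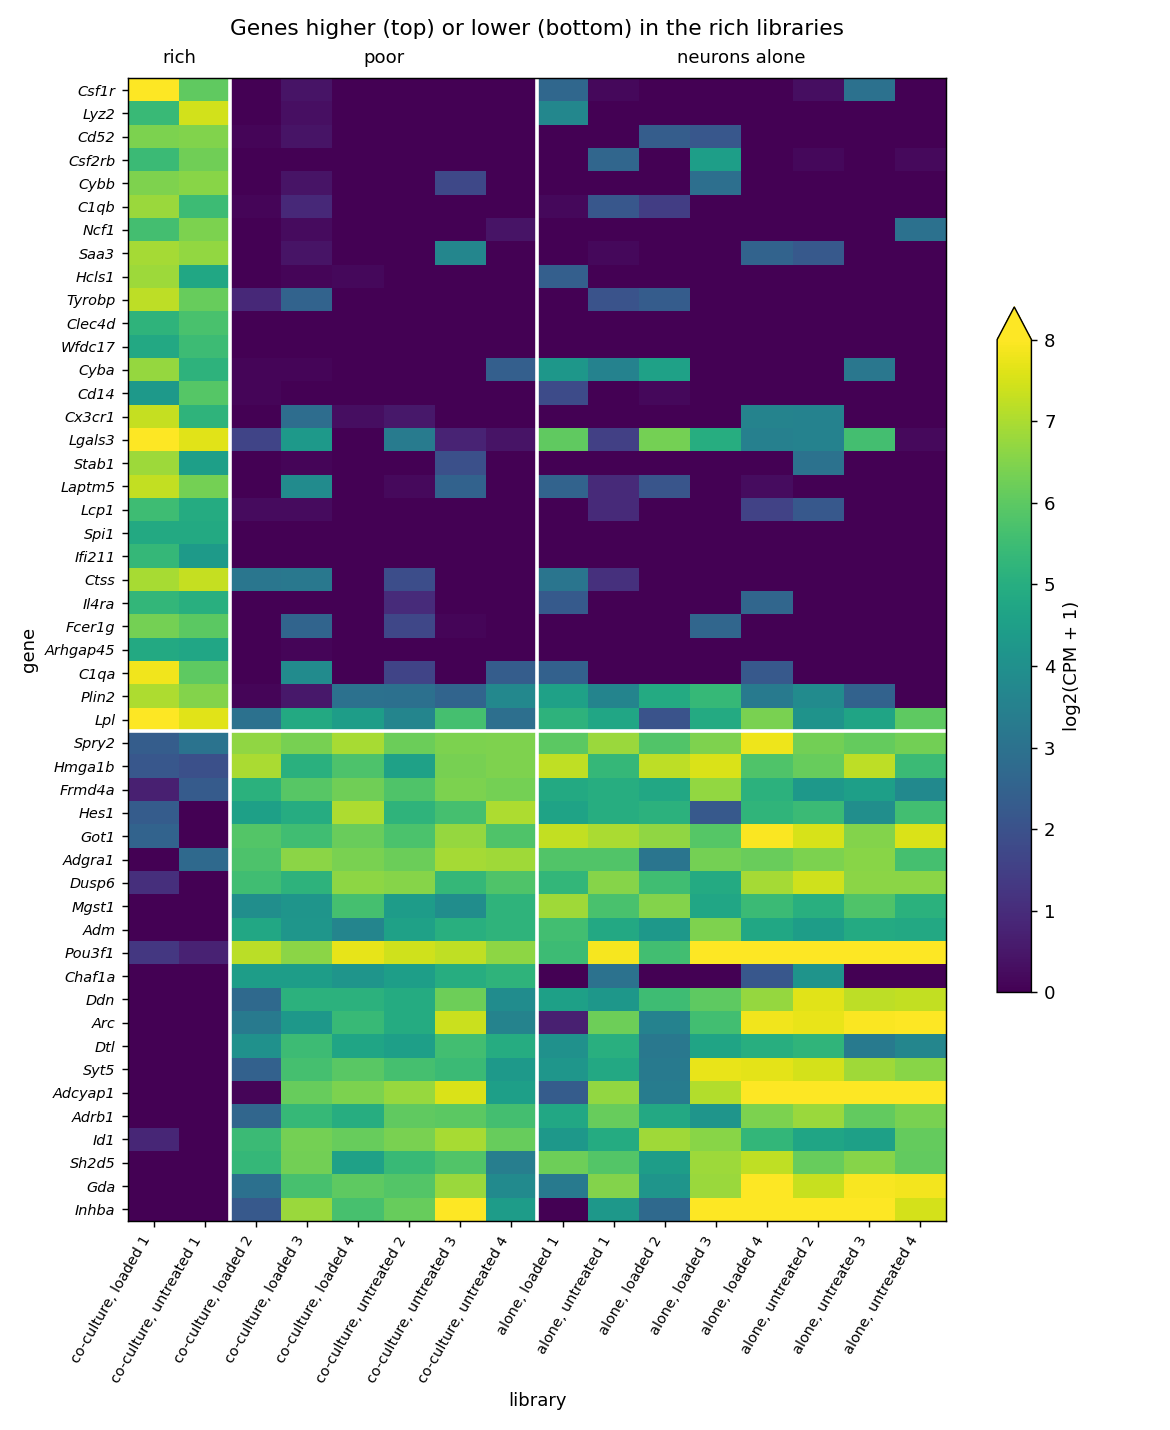
Level of the named gained genes (upper block) and of the named genes lower in the rich libraries (lower block) in all 16 libraries, as log2(CPM + 1), with colour saturating at 8. The 2 rich libraries are the left columns, followed by the 6 poor co-cultures and the 8 libraries of neurons alone, and the upper block is bright in the 2 rich columns while the lower block is dark there.

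Adaptors and receptors of the phagocyte surface were scarce outside the rich libraries. Tyrobp, the signalling adaptor of Trem2, had 146 CPM in the loaded and 70.2 CPM in the untreated rich library, against 0 to 4.91 CPM (median 0) in the 6 poor libraries. Fcer1g, the adaptor of the activating Fc receptors, had 78.9 CPM in the loaded and 61.8 CPM in the untreated rich library, against 0 to 4.99 CPM (median 0.0377) in the 6 poor libraries. No poor library exceeded 5 CPM for either adaptor. Inpp5d, the lipid phosphatase SHIP1 that restrains signals from such adaptors, had 15.4 CPM in the loaded and 30.2 CPM in the untreated rich library, against 0 to 1.69 CPM (median 0) in the 6 poor libraries. Ptprc, the leukocyte phosphatase CD45, had 9.60 CPM in the loaded and 57.1 CPM in the untreated rich library and was at 0 in all 6 poor libraries. By the mean of the rich libraries it was at least 108-fold higher. Of the list of Fc receptors and their signalling, 6 of 14 genes that passed the filter were gained, and 9 lay above all poor libraries in both rich ones. The list's median log2 difference was 5.34, or 5.16 with bounds. The gained members were Tyrobp, Fcer1g, Inpp5d, Cd84, Fyb and Ptpn6. The Fc receptors Fcgr1, Fcgr2b, Fcgr3 and Fcgr4 were at 0 in all 6 poor libraries but were not gained. In the loaded rich library Fcgr3 had 3.84 CPM, below the 5 CPM of the rule, and the other Fc receptors named were at 0. The fractalkine receptor Cx3cr1, through which neurons signal to microglia, had 156 CPM in the loaded and 36.1 CPM in the untreated rich library, against 0 to 6.32 CPM (median 0.114) in the 6 poor libraries, and neurons alone reached 10.9 CPM.

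Receptors for growth factors and mediators were gained as well. Csf2rb, the shared signalling chain of the receptors for granulocyte-macrophage colony-stimulating factor and related cytokines, had 43.2 CPM in the loaded and 76.0 CPM in the untreated rich library and was 0 in all 6 poor libraries, at least 193-fold higher. It was not at 0 in every library of neurons alone, where loaded replicate 3 had 21.2 CPM. Il4ra, the interleukin-4 receptor chain, had 38.6 CPM in the loaded and 31.8 CPM in the untreated rich library, against 0 to 0.989 CPM (median 0) in the 6 poor libraries. C5ar1, a receptor for the complement fragment C5a, had 39.5 CPM in the loaded and 16.4 CPM in the untreated rich library, against 0 to 0.166 CPM (median 0) in the 6 poor libraries. Of the complement list, 3 of 9 filtered genes were gained and 8 lay above all poor libraries, with a median log2 difference of 5.75.

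Also among the gained genes were subunits of the phagocyte NADPH oxidase, the enzyme that makes superoxide in phagosomes. This group was put together after the values were seen. Cybb, its catalytic membrane subunit, had 86.7 CPM in the loaded and 93.6 CPM in the untreated rich library, against 0 to 2.34 CPM (median 0) in the 6 poor libraries. Cyba, the partner of Cybb in the membrane, had 105 CPM in the loaded and 35.0 CPM in the untreated rich library, against 0 to 4.38 CPM (median 0.0416) in the 6 poor libraries. Ncf1, a cytosolic organiser of the enzyme, had 48.0 CPM in the loaded and 84.2 CPM in the untreated rich library, against 0 to 0.346 CPM (median 0) in the 6 poor libraries. All 3 were gained, as was the small GTPase Rac2, with 14.1 CPM in the loaded and 54.8 CPM in the untreated rich library. Ncf4, another cytosolic subunit, fell short of the threshold, with 10.6 CPM in the loaded and 0 CPM in the untreated rich library, and the poor libraries reached 0.0832 CPM.

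Genes of the lysosome were shared more widely with neurons. Lyz2, lysozyme, had 41.6 CPM in the loaded and 175 CPM in the untreated rich library, against 0 to 0.249 CPM (median 0) in the 6 poor libraries, and loaded neurons alone replicate 1 was the only library of neurons alone above 0, at 12 CPM. Reads of Lyz2 may be split with its close copy Lyz1, so its level is uncertain. Stab1, a scavenger receptor, had 112 CPM in the loaded and 21.9 CPM in the untreated rich library, against 0 to 2.87 CPM (median 0) in the 6 poor libraries. These 2 were scarcely seen in neurons, unlike the ubiquitous lysosomal proteases. Ctsd, cathepsin D, had 988 CPM in the loaded and 269 CPM in the untreated rich library, against 102 to 213 CPM (median 179) in the 6 poor libraries. Ctsb, cathepsin B, had 477 CPM in the loaded and 516 CPM in the untreated rich library, against 133 to 287 CPM (median 159.8) in the 6 poor libraries. For both the rich libraries lay above every poor one, yet neurons alone reached 483 CPM for Ctsd and 499 CPM for Ctsb. Over the 23 filtered genes of the lysosomal and phagocytic list, 3 were gained, 10 lay above all poor libraries, and the summed level was 3326 CPM in the loaded and 2662 CPM in the untreated rich library, against 1021 to 1664 CPM (median 1306) in the 6 poor libraries. It was 960.4 to 2989 CPM (median 1790.1) in the 8 libraries of neurons alone.

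Several transcripts of lipid-handling and activated microglia were prominent. Lgals3, galectin-3, a lectin of phagocytes that face damaged membranes, had 391 CPM in the loaded and 197 CPM in the untreated rich library, against 0 to 18.8 CPM (median 1.45) in the 6 poor libraries, while neurons alone reached 78.7 CPM. Spp1, osteopontin, a secreted protein of activated microglia, had 74.9 CPM in the loaded and 83.1 CPM in the untreated rich library, against 0 to 5.65 CPM (median 0.535) in the 6 poor libraries. Plin2, the coat protein of lipid droplets, had 129 CPM in the loaded and 90.1 CPM in the untreated rich library, against 0.0892 to 12.2 CPM (median 5.88) in the 6 poor libraries. Lpl, lipoprotein lipase, had 266 CPM in the loaded and 199 CPM in the untreated rich library, against 6.57 to 49.3 CPM (median 16.1) in the 6 poor libraries. These 4 were gained, whereas Apoe, which astrocytes also make, was not, with 1486 CPM in the loaded and 983 CPM in the untreated rich library, against 356 to 1403 CPM (median 623) in the 6 poor libraries. That list had a median log2 difference of 1.56, with 4 of 18 filtered genes gained. Trem2 itself, the lipid receptor of this state, had 26.6 CPM in the loaded and 6.70 CPM in the untreated rich library, against 0 to 7.07 CPM (median 0) in the 6 poor libraries, and was not gained.

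Inflammatory transcripts were present in both rich libraries. Tnf, the cytokine tumour necrosis factor, had 10.4 CPM in the loaded and 12.8 CPM in the untreated rich library and was 0 in all 14 other libraries, at least 37.4-fold higher than in the poor ones. Ccl4, a chemokine for leukocytes, had 23.5 CPM in the loaded and 13.1 CPM in the untreated rich library and was likewise 0 in the 14 others. Cd14, the co-receptor for bacterial lipopolysaccharide, had 18.6 CPM in the loaded and 58.5 CPM in the untreated rich library, against 0 to 0.0892 CPM (median 0) in the 6 poor libraries. Saa3, an acute-phase protein, had 121 CPM in the loaded and 104 CPM in the untreated rich library, against 0 to 11.8 CPM (median 0) in the 6 poor libraries. In contrast to Tnf, the cytokines Il6, Il1a, Il12b and Il10 were at 0 in both rich libraries, and Il1b had 12 CPM in the loaded and 10.5 CPM in the untreated rich library, with up to 6.96 CPM in the poor libraries. Of the chemokine and cytokine list, 4 of 16 filtered genes were gained and the median log2 difference was 2.19.

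Further genes of blood-lineage cells set the rich libraries apart. Clec4d, a C-type lectin receptor of myeloid cells, had 35.8 CPM in the loaded and 51.5 CPM in the untreated rich library and was 0 in all 14 other libraries, at least 141-fold higher than in the poor ones. Wfdc17, a secreted protein of activated macrophages, had 27.2 CPM in the loaded and 43.3 CPM in the untreated rich library and was likewise at 0 in the 14 others. Hcls1, an actin regulator of blood-lineage cells, had 112 CPM in the loaded and 26.4 CPM in the untreated rich library, against 0 to 0.114 CPM (median 0) in the 6 poor libraries. Lcp1, the actin bundler plastin 2, had 44.5 CPM in the loaded and 29.4 CPM in the untreated rich library, against 0 to 0.178 CPM (median 0) in the 6 poor libraries. Of the list of leukocyte cytoskeleton and adhesion genes, 6 of 17 filtered genes were gained, with a median log2 difference of 4.39. The actin-sequestering Tmsb4x, abundant in every library, had 299 CPM in the loaded and 2251 CPM in the untreated rich library, against 824 to 2842 CPM (median 1369) in the 6 poor libraries, so the loaded rich library was the lowest of the co-cultures.

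Several listed genes were higher in the rich libraries without reaching the threshold. C3ar1, the receptor for complement fragment C3a, had 43.4 CPM in the loaded and 104 CPM in the untreated rich library, against 0 to 20.4 CPM (median 0.339) in the 6 poor libraries. Syk, the kinase that the adaptors Tyrobp and Fcer1g recruit, had 30.1 CPM in the loaded and 30.9 CPM in the untreated rich library, against 0 to 11.6 CPM (median 0) in the 6 poor libraries. Ccl3, a chemokine, had 51.7 CPM in the loaded and 7.10 CPM in the untreated rich library, against 0 to 6.42 CPM (median 0) in the 6 poor libraries. For these 3, both rich libraries lay above all poor ones. B2m, the light chain of class I molecules, had 45.0 CPM in the loaded and 103 CPM in the untreated rich library, against 17.6 to 34.6 CPM (median 26) in the 6 poor libraries. H2-D1, one of their heavy chains, had 39.5 CPM in the loaded and 133 CPM in the untreated rich library, against 19.3 to 63.9 CPM (median 34.1) in the 6 poor libraries, so the libraries overlapped. Over the 11 filtered genes of the antigen presentation list the median log2 difference was 0.00. It was 0.52 with bounds, where 3 genes too low to set a limit were left out. Over the list of toll-like receptors and inflammasome genes it was 3.05 (2.85 with bounds), with 1 of 7 gained, Cd14.

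The label of microglia was checked against further markers. Of the 32 listed microglial identity genes 31 were in the file and 22 passed the filter. Of the 22, 8 were gained, 19 were higher and 3 lower in the rich libraries, and the median log2 difference was 4.39. The 31 summed to 1707 CPM in the loaded and 970 CPM in the untreated rich library. Poor libraries had 162 to 395 CPM and neurons alone 97.4 to 632 CPM. Sparc, a list member, was between 30.5 and 566 CPM in all 16 libraries. Without it, the remaining 30 summed to 1511 CPM in the loaded and 848 CPM in the untreated rich library. Poor libraries then had 50.8 to 171 CPM and neurons alone 38.1 to 144 CPM. By contrast P2ry12, P2ry13, Tmem119 and Slco2b1, which mark microglia of the undisturbed brain, were at 0 in both rich libraries. The antigen-presenting genes H2-Aa and Cd74 were also at 0 there. Some listed microglial genes went the other way. Gpr34 and Olfml3 were at 0 in both rich libraries, while poor libraries reached 3.95 and 8.47 CPM. Sall1 had 15.5 CPM in the loaded and 11.2 CPM in the untreated rich library, and poor libraries reached 36.3 CPM.

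Most markers of other blood-lineage cells were at or near 0 in rich libraries, but Pf4 was above every poor library in both and Ms4a7 and Folr2 in the untreated one. Among 12 markers of border and peripheral macrophages, Ccr2, Ly6c2, Cd163, F13a1 and Lyve1 were at 0 in both rich libraries and Mrc1 had 0 CPM in the loaded and 0.0798 CPM in the untreated rich library. Pf4, a chemokine of platelets and border macrophages, had 17.6 CPM in the loaded and 18.9 CPM in the untreated rich library, against 0 to 4.99 CPM (median 0) in the 6 poor libraries, and Ms4a7 had 0.160 CPM in the loaded and 18.1 CPM in the untreated rich library. Folr2 had 0 CPM in the loaded and 2.63 CPM in the untreated rich library. Summed over the list, which includes members that neurons alone also expressed, the level was 102 CPM in the loaded and 123 CPM in the untreated rich library, against 61.3 to 159.6 CPM (median 91.8) in the 6 poor libraries. Gas6, a secreted ligand, made up most of that sum, with 84.6 CPM in the loaded and 83.1 CPM in the untreated rich library, against 59.0 to 159.6 CPM (median 87.1) in the 6 poor libraries. Only Pf4 and Gas6 passed the filter on low counts. Over these 2 the mean log2 CPM was 5.28 in the loaded and 5.32 in the untreated rich library, against 1.82 to 4.58 in poor libraries, and the median log2 difference was 2.79. Of the listed markers of other leukocytes and of red blood cells, only 4 of 16 and 3 of 9 were in the file. Each list summed to 0 in both rich libraries, and its median over the poor libraries was 0 as well. Markers of vessels and fibroblasts summed to 0.160 and 13.6 CPM in the loaded and untreated rich library, against 0 to 26.8 CPM in poor libraries.

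The 2 rich libraries did not hold the same mix of microglial transcripts. With 1 library of each fibril state there is no replicate check, so these are values of 2 libraries and not of loaded and untreated co-cultures. Csf1r was 291 CPM in the loaded against 64.8 CPM in the untreated rich library, C1qa 225 against 63.0 CPM, and Cx3cr1 156 against 36.1 CPM. Ccl9, a chemokine of myeloid cells, was 92.9 CPM in the loaded against 8.62 CPM in the untreated rich library. Set against the summed identity list of each library, Sparc included, these genes took shares 2.55, 2.03, 2.45 and 6.13 times as large in the loaded as in the untreated one.

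Other genes leaned the opposite way. Lyz2 took a share 0.135 times as large in the loaded as in the untreated rich library, Ptprc 0.0954 times and Cd14 0.180 times. Adgre1, the macrophage surface receptor F4/80, was at 0 in the loaded and 29.4 CPM in the untreated rich library, and the tetraspanin Cd53 was 0.160 against 40.0 CPM. In the other direction, Msr1, a scavenger receptor, had 23.2 CPM in the loaded and 0 in the untreated rich library, and Itgam, the complement receptor chain CD11b, had 22.4 against 1.44 CPM. Genes such as Spi1, at 28.2 and 27.8 CPM, and Cd52, a glycoprotein of leukocytes, at 85.1 and 88.2 CPM, were nearly alike in level. The loaded rich library had the highest number of genes at 0 that other libraries hold, 666, so its zeros among listed microglial genes stand beside many zeros elsewhere.

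**Figure D2:**
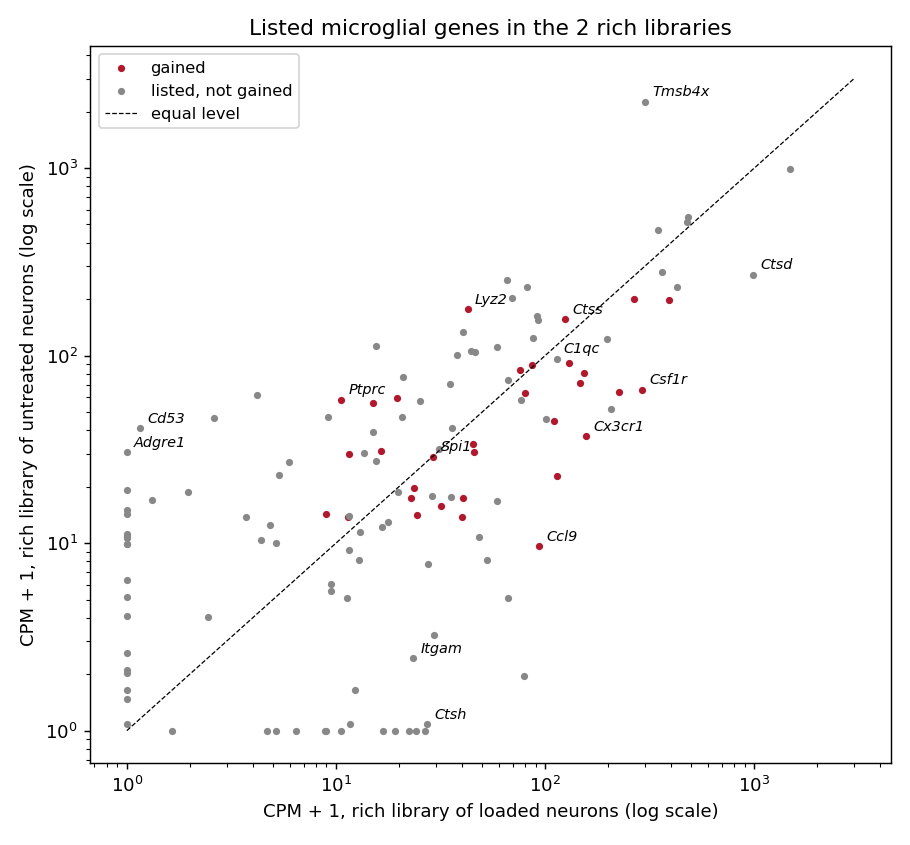
Level of each listed microglial gene in the loaded rich library (horizontal) and in the untreated rich library (vertical), both as CPM + 1 on log scales, with gained genes in red and the dashed line at equal levels. Csf1r and Ccl9 lie below the line, Lyz2 and Ptprc above it, and genes along the axes were at 0 in one of the 2 libraries.

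On the other side, 83 genes (0.569%) were lost: the lowest poor library had at least 5 CPM and at least 4 times the level of the higher rich library. Both rich libraries lay below all 6 poor ones for 891 genes (6.11%). Both rich libraries were at 0 for 26 of the 83, and at least 1 of them for 65, which stands beside the high number of zeros these 2 libraries had over all genes. In 48 of the 83 lost genes every library of neurons alone also exceeded the higher rich library. Picking genes for low rich levels favours this, and it was not counted over all genes. The median log2 difference over the 83 was -5.68, or -5.48 with genes at 0 in both rich libraries set at their limit.

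Activity-regulated transcripts of neurons were among the genes that were lower. Arc, a synaptic protein made on neuronal activity, was at 0 in both rich libraries, against 8.65 to 162 CPM (median 23.8) in the 6 poor libraries. By the mean of the poor libraries it was at least 125-fold lower. Egr1, an activity-induced transcription factor, had 9.76 CPM in the loaded and 24.9 CPM in the untreated rich library, against 84.2 to 320.5 CPM (median 288) in the 6 poor libraries. Fosb, a member of the AP-1 family, had 5.28 CPM in the loaded and 4.71 CPM in the untreated rich library, against 17.5 to 275 CPM (median 80.0) in the 6 poor libraries. The 2 rich libraries were the lowest of the co-cultures for all of these. Bdnf, the growth factor that active neurons secrete, had 0 CPM in the loaded and 6.94 CPM in the untreated rich library, but loaded co-culture replicate 2, a poor library, was at 0 and the other poor libraries reached 336 CPM. Of the 22 immediate early genes on the list, 21 were lower in the rich libraries, 11 lay below all poor libraries and 3 were lost, and the median log2 difference was -3.90. The exception was Jun, a partner of Fos in AP-1, with 409.9 CPM in the loaded and 209 CPM in the untreated rich library, against 185 to 472 CPM (median 286) in the 6 poor libraries.

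The same list was low in neurons alone of the first codes. In neurons alone, 21 of 22 immediate early genes were lower in the 2 libraries of the first codes than in the 6 of later codes, with a median log2 difference of -2.27, and the difference between rich and poor libraries beyond that in neurons alone had a median of -1.65. Of all 14577 genes, 6584 were lower and 7782 higher in neurons alone of the first codes. Arc, for instance, had 0.612 CPM in loaded and 74.1 CPM in untreated neurons alone of the first codes, against 10.6 to 422 CPM in neurons alone of later codes. None of the 22 passed the test of first against later codes described below. Among loaded co-cultures the difference of rich minus poor libraries was larger, with a median of -5.52, than among untreated ones, at -2.47. Each value rests on 1 rich library, and the difference between them was not tested. In loaded neurons alone the list's mean log2 CPM was 2.16 with the first codes, against 4.15 to 6.62 with later codes. In untreated neurons alone it was 5.40, against 6.35 to 7.16.

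Some feedback inhibitors and targets of the ERK kinase pathway, grouped after the values were seen, were low in rich libraries, and others were not. Dusp6, a phosphatase that switches ERK off, had 1.12 CPM in the loaded and 0 CPM in the untreated rich library, against 35.3 to 97.9 CPM (median 49.9) in the 6 poor libraries and 28.6 to 172 CPM (median 94.2) in the 8 libraries of neurons alone. Spry2, an inhibitor of receptor signalling towards ERK, had 4.16 CPM in the loaded and 7.34 CPM in the untreated rich library, against 72.7 to 123 CPM (median 85.2) in the 6 poor libraries. Spry4 was at 0 in both rich libraries, against 5.79 to 53.7 CPM (median 21.9) in the 6 poor libraries. These 3 were lost, and every poor library lay above both rich ones. Spred1, of the same family of inhibitors, had 31.7 CPM in the loaded and 117 CPM in the untreated rich library, against 109.7 to 181 CPM (median 136) in the 6 poor libraries, so the untreated rich library lay within the poor range. The rest of the group did not count as lost. Spry1 and Etv5 were lower in both rich libraries than in every poor one. Etv1, an ETS factor that ERK signalling induces, had 22.1 CPM in the loaded and 124 CPM in the untreated rich library, against 56.1 to 169 CPM (median 113) in the 6 poor libraries. The related Etv4 had 16.3 CPM in the loaded and 34.5 CPM in the untreated rich library, against 2.94 to 31.8 CPM (median 18.6) in the 6 poor libraries, the untreated rich library being the highest of the co-cultures. Spred2, Dusp4 and Dusp5 had poor libraries at 0, so the rich ones could not lie below all of them.

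Transcription factors of the Id and Hes families formed another such group. Id1, which blocks bHLH factors, had 0.800 CPM in the loaded and 0 CPM in the untreated rich library, against 42.5 to 124 CPM (median 74.9) in the 6 poor libraries and 18.2 to 115 CPM (median 33.8) in the 8 libraries of neurons alone. Hes1, a target of Notch signalling, had 4.0 CPM in the loaded and 0 CPM in the untreated rich library, against 22.2 to 128 CPM (median 42.3) in the 6 poor libraries. The related Id2 had 155 CPM in the loaded and 111 CPM in the untreated rich library, against 241 to 875 CPM (median 320.4) in the 6 poor libraries. Id3 had 5.60 CPM in the loaded and 34 CPM in the untreated rich library, against 48.6 to 342 CPM (median 116) in the 6 poor libraries, and Id4 had 0.640 CPM in the loaded and 9.89 CPM in the untreated rich library, against 35.4 to 232 CPM (median 89.2) in the 6 poor libraries. For Id1 to Id4 and Hes1 the rich libraries were the lowest 2 of the 8 co-cultures, though only Id1 and Hes1 counted as lost. Hes5 and Hes6 did not share this: Hes5, another Notch target, had 5.60 CPM in the loaded and 9.33 CPM in the untreated rich library, against 4.66 to 20.9 CPM (median 16.7) in the 6 poor libraries, and Hes6 had 9.60 CPM in the loaded and 30.8 CPM in the untreated rich library, against 5.98 to 45.8 CPM (median 21.0) in the 6 poor libraries, so both rich libraries lay within the poor range for each.

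Some neuronal genes were absent or nearly so from the rich libraries. Gda, guanine deaminase, was at 0 in both rich libraries, against 6.69 to 111 CPM (median 54.0) in the 6 poor libraries. By the mean of the poor libraries it was at least 140.1-fold lower. Pou3f1, a transcription factor of cortical neurons, had 1.44 CPM in the loaded and 0.718 CPM in the untreated rich library, against 97.5 to 207 CPM (median 146) in the 6 poor libraries and 43.3 to 618 CPM (median 318) in the 8 libraries of neurons alone. Sh2d5, Adrb1, the β1 adrenergic receptor, and Ddn, dendrin of the postsynapse, were at 0 in both rich libraries and reached at least 64.8 CPM in the highest poor library.

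The remaining lost genes with the largest differences or levels came from several processes. Got1, an aminotransferase of the cytosol, had 4.80 CPM in the loaded and 0 CPM in the untreated rich library, against 45.8 to 105 CPM (median 56.1) in the 6 poor libraries. Mgst1, a microsomal glutathione transferase, was at 0 in both rich libraries, against 14.2 to 48.5 CPM (median 18.8) in the 6 poor libraries. Chaf1a, a subunit of the histone chaperone that follows DNA replication, and Dtl, which directs the destruction of replication factors, were both at 0 in the rich libraries. The poor libraries had 17.1 to 35.5 CPM of Chaf1a and 15.5 to 46.8 CPM of Dtl. Adm, the vessel-dilating peptide adrenomedullin, was at 0 in both rich libraries, against 11.4 to 35.7 CPM (median 24.7) in the 6 poor libraries. Neurons alone held all of these in all 8 libraries except Chaf1a, which was at 0 in 5 of 8.

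Inhba, Adcyap1 and Syt5 were also at 0 in both rich libraries, but some poor libraries were low as well. Inhba, a subunit of activins, had 3.75 to 315 CPM (median 59.8) in the 6 poor libraries. Adcyap1, the peptide PACAP, had 0.0892 to 187 CPM (median 76.7) in the 6 poor libraries, and Syt5, a calcium sensor of secretory vesicles, had 4.55 to 60.8 CPM (median 45.7) in the 6 poor libraries, so none of these met the rule for lost genes. Hmga1b, a chromatin protein, had 3.52 CPM in the loaded and 2.87 CPM in the untreated rich library, against 22.7 to 125 CPM (median 67.3) in the 6 poor libraries, though its reads may be split with the near-identical Hmga1. Adgra1, an adhesion receptor, had 0 CPM in the loaded and 5.58 CPM in the untreated rich library, against 53.6 to 120.0 CPM (median 89.2) in the 6 poor libraries, and Frmd4a, a scaffold of cell polarity, had 0.640 CPM in the loaded and 3.91 CPM in the untreated rich library, against 33.5 to 84.7 CPM (median 67.9) in the 6 poor libraries.

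**Figure D3:**
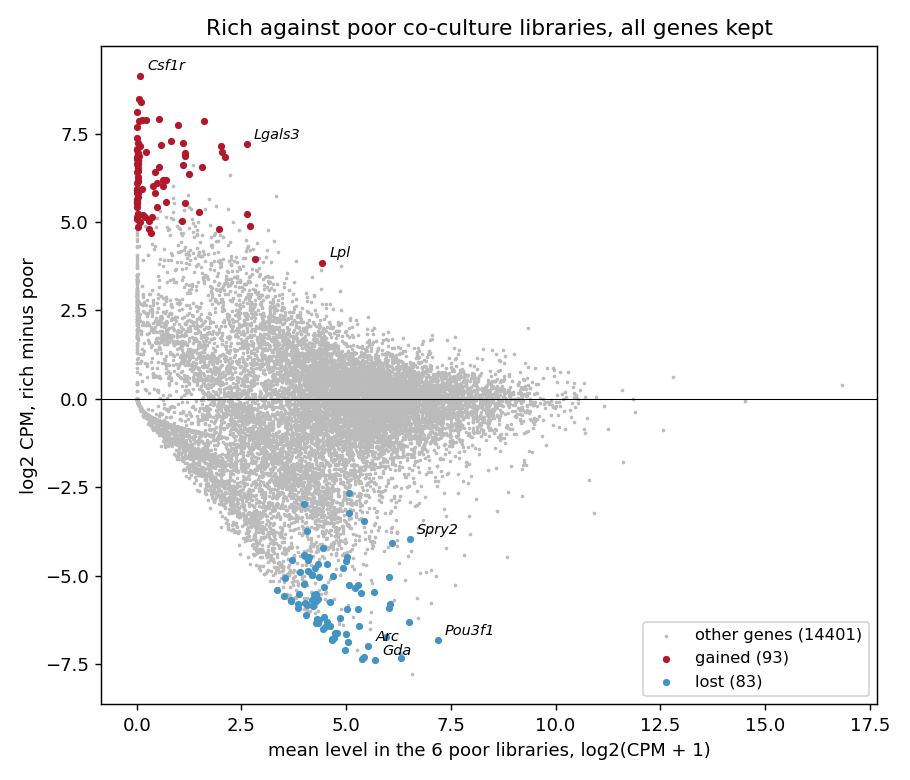
Each point is 1 of the 14577 filtered genes, with its mean level in the 6 poor libraries as log2(CPM + 1) on the horizontal axis and the log2 CPM difference of rich minus poor libraries on the vertical axis. Most of the 93 gained genes (red) sit at low levels of the poor libraries and the 83 lost genes (blue) span a middle range of levels.

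Neuronal lists as a whole moved less than these single genes. Over the neuronal identity list the median log2 difference of rich minus poor libraries was -0.39, near the -0.25 of all genes. Of its genes 14 of 22 were lower, beside 8425 of 14577 over all genes. Map2, a microtubule protein of dendrites, had 925 CPM in the loaded and 724 CPM in the untreated rich library, against 536 to 777 CPM (median 659.5) in the 6 poor libraries, so the loaded rich library lay above the poor ones and the untreated within their range. Stmn2, a tubulin-binding protein of growing axons, had 0 CPM in the loaded and 14.9 CPM in the untreated rich library, against 21.3 to 276 CPM (median 121) in the 6 poor libraries, with both rich libraries below every poor one. Elavl4, a neuronal RNA-binding protein, lay the other way, with 212 CPM in the loaded and 168 CPM in the untreated rich library, against 45.2 to 119 CPM (median 90.4) in the 6 poor libraries. Excitatory-neuron genes had a median of -2.11 (-2.96 with bounds), 17 of 19 being lower, and inhibitory-neuron genes one of 0.12. Neurons alone of the first codes, set against those of later codes, had a median log2 difference of -1.01 for neuronal identity with 21 of 22 genes lower, -0.61 for excitatory neurons with 17 of 19 lower, and -1.24 for inhibitory neurons with 10 of 16 lower. The shared code run and the microglial level cannot be told apart here.

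Synaptic lists were lower in the rich libraries, with medians of -1.24 over 24 presynaptic and -1.06 over 21 postsynaptic genes. Snap25, a fusion protein of synaptic vesicles, had 5.12 CPM in the loaded and 0.878 CPM in the untreated rich library, against 5.76 to 169.6 CPM (median 50.8) in the 6 poor libraries. Both rich libraries lay below all poor ones for 7 presynaptic and 1 postsynaptic gene, and above them for 0 of either list. In neurons alone the first codes were also the lower side for 23 of 24 presynaptic genes, with a median of -1.10.

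Neuronal genes that signal to microglia were measured in the same libraries. Cx3cl1, the fractalkine ligand of Cx3cr1, had 14.6 CPM in the loaded and 112 CPM in the untreated rich library, against 90.9 to 363 CPM (median 198) in the 6 poor libraries, so only the loaded rich library lay below the poor range. Cd47, the signal that restrains engulfment, had 229 CPM in the loaded and 129 CPM in the untreated rich library, against 93.3 to 210.0 CPM (median 114) in the 6 poor libraries. Tgfb2, a growth factor of the TGF-β family, had 9.92 CPM in the loaded and 6.46 CPM in the untreated rich library, against 15.3 to 61.0 CPM (median 25.9) in the 6 poor libraries, both rich libraries being the lowest. The list's median log2 difference was -0.46, with 8 of 10 lower.

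Interferon-induced genes were higher in the rich libraries and in the first codes of neurons alone. Ifitm3, a membrane protein that restricts viral entry, had 101 CPM in the loaded and 31.4 CPM in the untreated rich library, against 0 to 19.3 CPM (median 4.69) in the 6 poor libraries, and 60.1 and 68.2 CPM in loaded and untreated neurons alone of the first codes. Isg15, a ubiquitin-like modifier, had 10.4 CPM in the loaded and 21.1 CPM in the untreated rich library, against 0 to 4.84 CPM (median 0.744) in the 6 poor libraries. The list's median log2 difference of rich minus poor libraries was 2.20, and that of first minus later codes in neurons alone was 2.84, with 18 of 20 filtered genes higher and 0 lower. Ifi211, Sp100, Sp110 and Slfn5, genes of interferon-inducible families that were not listed, were gained. Of these Ifi211, Sp100 and Sp110 were at 0 in all 8 libraries of neurons alone.

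Glia other than microglia were mixed. Over the oligodendrocyte-lineage list the median was 0.34, and 4 of 21 genes lay above all poor libraries. Gpr17, one of them, a receptor of committed precursors, had 3103 CPM in the loaded and 1701 CPM in the untreated rich library, against 303 to 1444 CPM (median 538) in the 6 poor libraries. Sox10, the lineage's transcription factor, had 1032 CPM in the loaded and 794 CPM in the untreated rich library, against 229 to 468 CPM (median 369) in the 6 poor libraries. Olig2, also a transcription factor of the lineage, had 161 CPM in the loaded and 731 CPM in the untreated rich library, against 622 to 1289 CPM (median 805) in the 6 poor libraries, so here the loaded rich library was the lowest and the untreated one lay within the poor range. Astrocyte genes had a median of -0.32, while in neurons alone all 19 were higher in the first codes, with a median of 1.05. Of the 19, 6 were higher and 13 lower in the rich libraries, and 3 lay below all poor ones. Their summed level was 5177 CPM in the loaded and 3719 CPM in the untreated rich library, within the poor range of 2013 to 13136 CPM. Clu, a secreted chaperone of astrocytes, had 10.6 CPM in the loaded and 28.2 CPM in the untreated rich library, against 64.9 to 139 CPM (median 71.3) in the 6 poor libraries. Sox9, a transcription factor of astrocytes, had 59.8 CPM in the loaded and 35.7 CPM in the untreated rich library, against 87.9 to 296 CPM (median 143) in the 6 poor libraries, and for both the rich libraries lay below every poor one.

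Cell-cycle genes split the 2 rich libraries. Top2a, a topoisomerase of dividing cells, had 133 CPM in the loaded and 483 CPM in the untreated rich library, against 357 to 683 CPM (median 511) in the 6 poor libraries. Pcna, the sliding clamp of DNA replication, had 12.3 CPM in the loaded and 142 CPM in the untreated rich library, against 42.3 to 85.0 CPM (median 58.5) in the 6 poor libraries. The loaded rich library was below every poor one for both, whereas the untreated was within the range for Top2a and above it for Pcna. The list's mean log2 level was 3.61 in the loaded and 6.5 in the untreated rich library, against 5.84 to 6.53 in the poor libraries. Its median log2 difference was -2.01 among loaded and 0.24 among untreated co-cultures. In neurons alone all 22 were higher in the first than in the later codes, with a median of 2.07.

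Ribosomal and respiratory genes, which every cell uses, had medians of -0.08 and -0.25. Genes of actin protrusions and tunnelling nanotubes had a median of 0.21, with 14 of 20 higher and 6 lower. Both rich libraries lay above all poor ones for 2 of the 20 and below all for 2. Tnfaip2, also called M-Sec, which promotes nanotube formation, had 69.6 CPM in the loaded and 95.5 CPM in the untreated rich library, against 0 to 23.5 CPM (median 8.56) in the 6 poor libraries. Neurons alone covered 0 to 113 CPM of Tnfaip2, so both rich libraries stood above the poor ones but within the range of neurons alone. Lst1, which recruits the nanotube machinery to the membrane, had 13.1 CPM in the loaded and 4.87 CPM in the untreated rich library, against 0 to 3.08 CPM (median 0) in the 6 poor libraries. The small GTPases Rala, Cdc42 and Rac1 had differences of 0.10, 0.11 and 0.01 on the log2 scale.

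**Figure D4:**
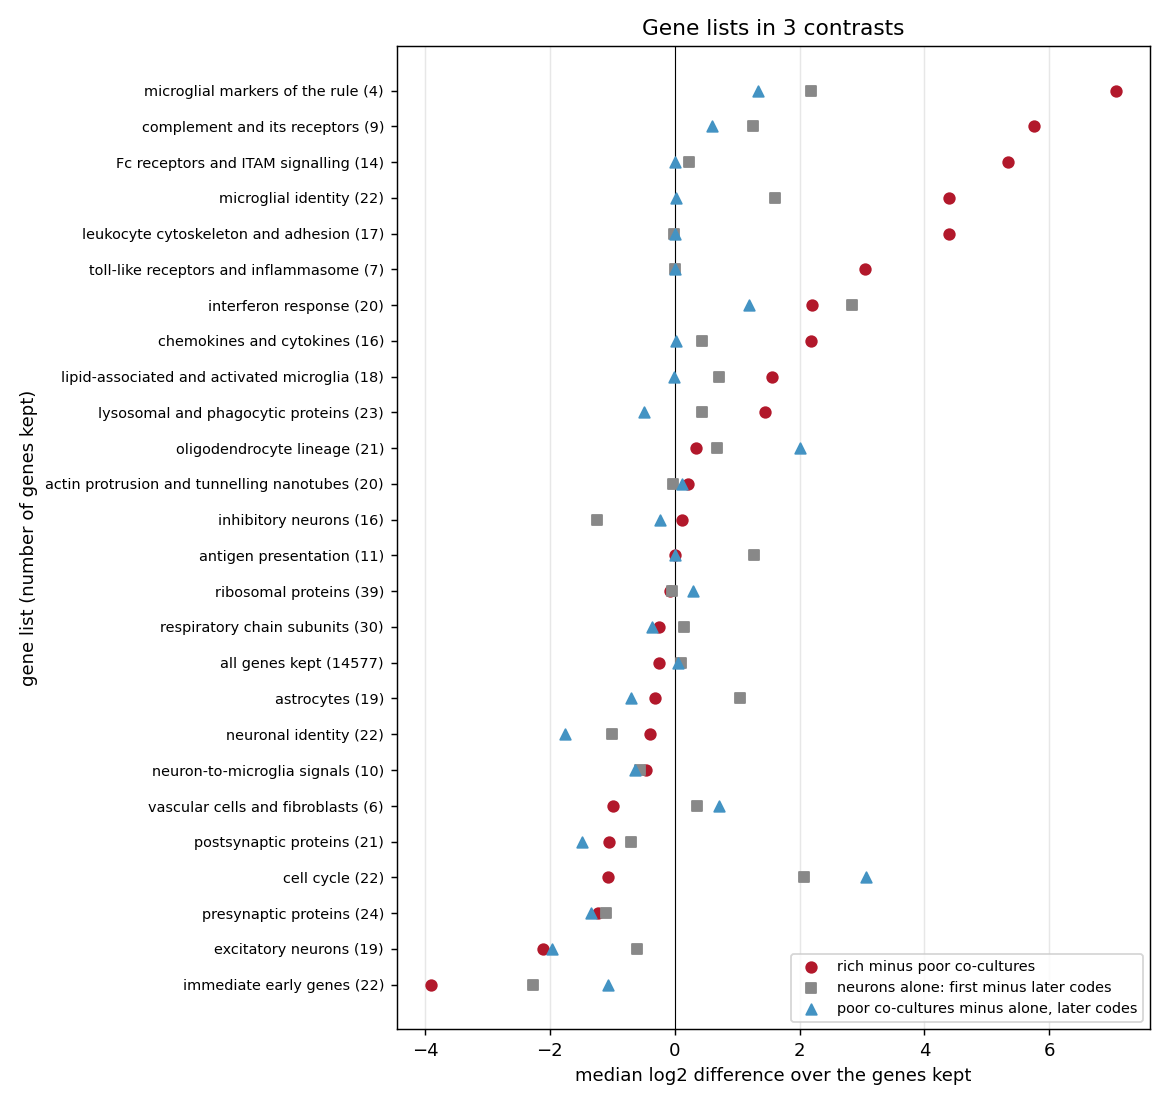
Median log2 difference over the filtered genes of each list in 3 contrasts: rich minus poor co-cultures (circles), first minus later codes in neurons alone (squares), and poor co-cultures minus neurons alone of later codes (triangles). For the circles, the lists of the rule's markers, complement, Fc receptors, microglial identity and leukocyte cytoskeleton lie furthest right, whereas antigen presentation lies at 0 and the lysosomal and lipid-associated lists, at 1.45 and 1.56, lie left of the interferon response at 2.20; immediate early genes are lowest for circles and squares, and cell-cycle and oligodendrocyte genes are highest for triangles.

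**Figure D5:**
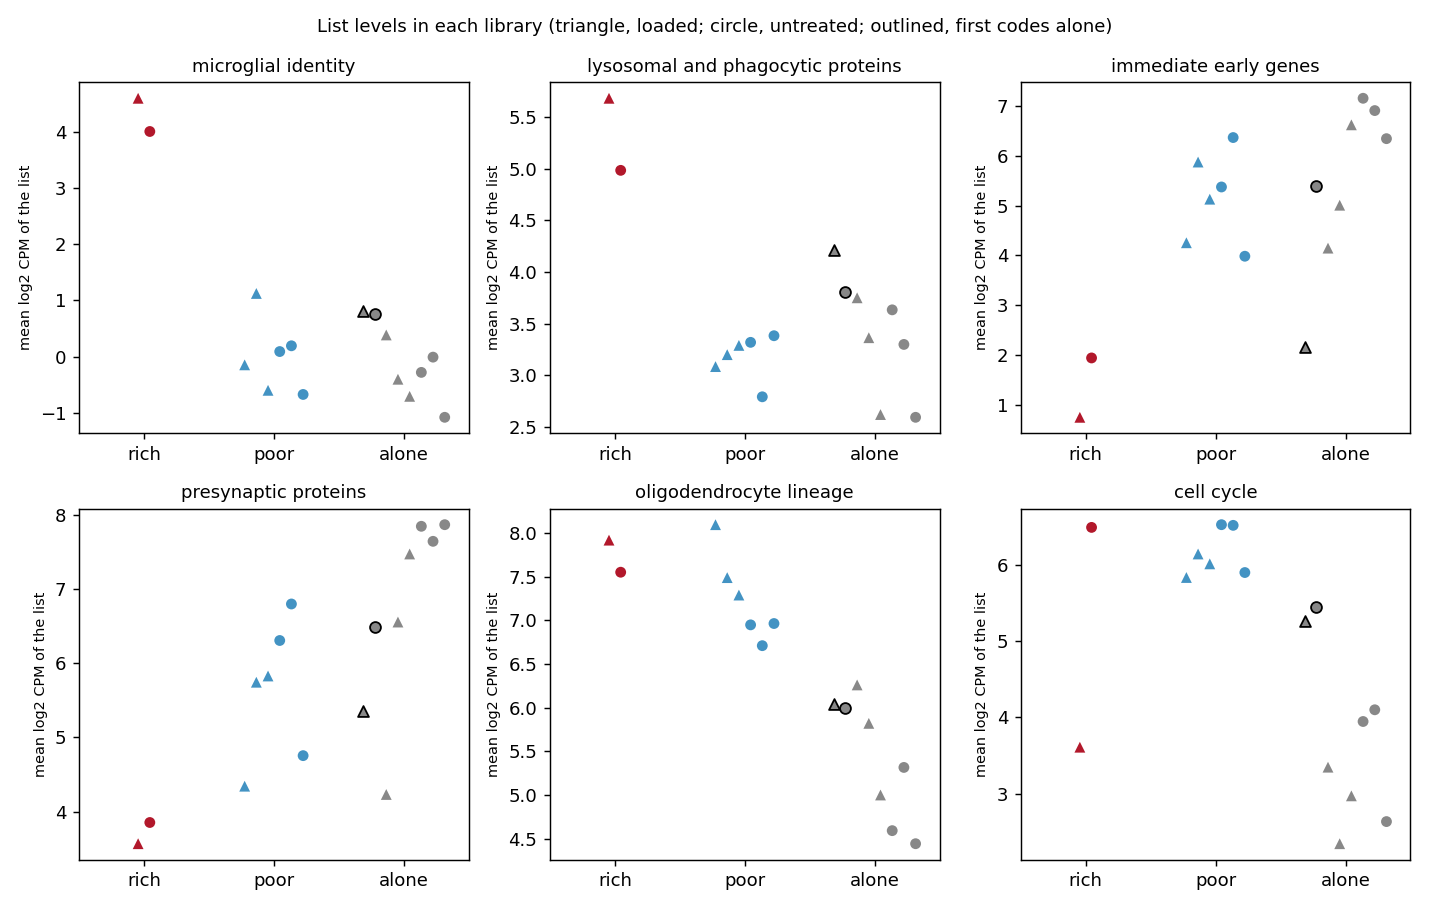
Mean log2 CPM of 6 lists in each library, with rich libraries left, poor co-cultures in the middle and neurons alone right; triangles are loaded and circles untreated neurons, and outlined points are neurons alone of the first codes. The 2 rich libraries are above all others for the microglial and lysosomal lists and below all others for immediate early and presynaptic genes, while on the cell-cycle plot the loaded rich library lies near neurons alone and the untreated one with the poor co-cultures.

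Whether the split by library code alone carries such differences was tested where the rule had not been applied, in neurons alone. The 2 libraries of the first codes were set against the 6 of later codes with edgeR's quasi-likelihood test in a fit over all 16 libraries. No gene of 14577 passed at an adjusted p under 0.05 (0.0%), while 981 had an unadjusted p under 0.05. DESeq2 called 434 genes, 103 higher and 331 lower, and limma-voom 51, 40 higher and 11 lower, in the same comparison, and edgeR called 47 without loaded neurons alone replicate 2, so the count and its direction depend on the tool, and the count on that library, and the 0 does not show that the code runs are alike. The 5 genes with the smallest p were Ptprz1, Nsg1, Tpx2, Kif4 and Ccnd1, each with an adjusted p of 0.137 by edgeR, which does not pass. Tpx2, a spindle protein, had 134 and 49.1 CPM in loaded and untreated neurons alone of the first codes, against 0.462 to 17.3 CPM in those of later codes. Of the 93 gained genes, 39 were higher and 30 lower in neurons alone of the first codes, with a median log2 difference of 0, and of the 83 lost genes 47 were higher and 36 lower, with a median of 0.26, against 0.11 over all genes. Of all 14577 genes, 7782 were higher and 6584 lower. The 4 markers of the rule were higher in neurons alone of the first codes in 4 of 4 cases, on the log2 mean, with Csf1r at 5.39 and 0.116 CPM in loaded and untreated neurons, against 0 to 6.88 CPM with later codes.

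The poor co-cultures were then set against neurons alone of the same later codes, 6 libraries each, to see what differed with microglia where microglial transcripts were scarce. By edgeR's quasi-likelihood test 266 of 14577 genes (1.82%) passed, 135 of them higher (0.926%) and 131 lower (0.899%) in the poor co-cultures. The count was 131 without loaded co-culture replicate 2, 155 without untreated neurons alone replicate 2, 176 without loaded or without untreated neurons alone replicate 4, and 455 without loaded neurons alone replicate 2. With library totals in place of the scaling used here, 238 were higher and 78 lower, and the median log2 fold change of all genes was 0.19 in place of 0.01. Microglial genes are given no test here, since the poor libraries were set apart by them.

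Oligodendrocyte-lineage genes rose: 13 of 21 passed, all higher in the poor co-cultures, and 10 to 17 passed under every alternative tried. Pdgfra, through which platelet-derived growth factor drives oligodendrocyte precursors, had 385 ± 116 CPM in poor co-cultures, against 53.6 ± 26.4 CPM in neurons alone with later codes (SD, n = 6 each). For Pdgfra the log2 fold change was 2.97 ± 0.31 (SE), with an edgeR adjusted p of 5.74e-06. Olig1, a transcription factor of the lineage, had 1439 ± 275 CPM in poor co-cultures, against 378 ± 166 CPM in neurons alone with later codes (SD, n = 6 each). For Olig1 the log2 fold change was 1.98 ± 0.25 (SE), with an edgeR adjusted p of 4.35e-05. The median log2 difference over the list was 2.01 for the poor co-cultures against neurons alone of later codes, and 1.75 for the rich libraries against neurons alone of the first codes, which is 2 libraries against 2 and was not tested. Cell-cycle genes rose in 8 of 22 cases and fell in 0, with 6 to 17 over the alternatives. Mki67, the proliferation marker Ki-67, had 143 ± 53.7 CPM in poor co-cultures, against 18.8 ± 7.5 CPM in neurons alone with later codes (SD, n = 6 each). For Mki67 the log2 fold change was 2.88 ± 0.36 (SE), with an edgeR adjusted p of 4.35e-05.

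Neuronal identity genes fell in 8 of 22 cases and rose in 0, with 6 to 14 over the alternatives. Nrgn, a calmodulin-binding protein of excitatory neurons, had 593 ± 394 CPM in poor co-cultures, against 4352 ± 2053 CPM in neurons alone with later codes (SD, n = 6 each). For Nrgn the log2 fold change was -2.87 ± 0.45 (SE), with an edgeR adjusted p of 0.00521. Thy1, a surface protein of neurons, had 44.3 ± 22.5 CPM in poor co-cultures, against 239 ± 90.6 CPM in neurons alone with later codes (SD, n = 6 each). For Thy1 the log2 fold change was -2.44 ± 0.34 (SE), with an edgeR adjusted p of 2.44e-04. The rich libraries were lower still for Nrgn, with 153 CPM in the loaded and 118 CPM in the untreated rich library, and within the poor range for Thy1, with 26.7 CPM in the loaded and 54.3 CPM in the untreated rich library. Oligodendrocyte-lineage and cell-cycle genes were higher in the same libraries, and their part in the fall of neuronal genes was not tested. Immediate early genes passed in 1 of 22 cases here, that of Junb, a member of the AP-1 family, with 74.6 ± 43.5 CPM in poor co-cultures, against 189 ± 75.4 CPM in neurons alone with later codes (SD, n = 6 each). For Junb the log2 fold change was -1.33 ± 0.36 (SE), with an edgeR adjusted p of 0.0495.

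The other genes with the largest changes included several at 0 on one side, for which the fitted fold is no measure. Rsad2, the interferon-induced enzyme viperin, ranged over 2.54 to 48.0 CPM in the poor co-cultures and was at 0 in neurons alone of later codes (edgeR adjusted p = 0.00727), yet it had 8.45 and 10.5 CPM in loaded and untreated neurons alone of the first codes. Kif4, a motor protein of dividing cells, had 21.9 ± 8.75 CPM in poor co-cultures, against 0.0121 ± 0.0297 CPM in neurons alone with later codes (SD, n = 6 each) (edgeR adjusted p = 0.00103). The poor co-cultures were at 0 for Kctd10, an adaptor of a ubiquitin ligase, against 0 to 65.0 CPM in the 6 libraries of neurons alone with later codes (edgeR adjusted p = 0.0213). Sult2b1, a steroid sulfotransferase, was at 0 in the poor co-cultures, against 5.07 to 25.9 CPM in neurons alone of later codes (edgeR adjusted p = 0.0365), and it was also at 0 in the rich libraries and in neurons alone of the first codes. Cdc23, Lypd6 and Sgo1 rose and Smim43 and Bhlhe22 fell, with edgeR adjusted p between 0.00968 and 0.0424.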

How the data were processed

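Poly(A) 3′ ends were counted in 16 libraries of cultured cortical neurons. Per the submitters' processing notes, without versions, the authors used STAR, mm10, Partek and DESeq2. The deposited counts are whole numbers per gene symbol, and a second table deposited by the authors, recorded here as a score, holds counts divided by a factor per library and rounded, and was used as an alternative only.

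The analysis ran in edgeR 4.0.16 under R 4.3.3, and figures were drawn with Python 3.11.15, pandas 2.3.3 and matplotlib 3.10.9. Genes passed edgeR's filterByExpr (minimum count 10, minimum total 15), which left 14577, and libraries were scaled by TMM. Log2 CPM used a prior count of 2. Both tests were contrasts of 1 robust quasi-likelihood fit over all 16 libraries, with Benjamini-Hochberg adjustment over all genes and a threshold of 0.05. On simulated data they missed most of the changes put in and made some false calls, so a gene that did not pass cannot be called unchanged. The spread between libraries was large, with a common biological coefficient of variation of 1.19, and log2 CPM of libraries of the same group correlated at 0.688 to 0.800, so no pair looked like 1 library deposited again. DESeq2 1.42.0 and limma-voom (limma 3.58.1) were alternatives. Sequences came from RefSeq on GRCm38.p6.

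Members, lists and contrasts were chosen with earlier results of these data known. Genes named by rule were the 4 markers, the 25 largest positive and 15 largest negative differences among non-overlapping genes with at least 10 CPM on the higher side, up to 5 members of each list, 5 called genes in each direction of each test, and the most abundant gained and lost genes. The others named were chosen after their values were seen. Counting error alone underlies the floor of 3 counts per library. Replicate numbers follow the runs of library codes, and no label ties a number to a shared culture.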

Additional observations from a re-analysis of the deposited data

Results flagged for a closer look

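All results listed here are mean log2 CPM levels of gene lists in which 1 library lay far from the other 3 of its group. Chance alone gives such a gap in about 1 of 20 groups, and the cause was not tested. Most lists were screened, each in the poor co-cultures, in loaded neurons alone and in untreated neurons alone. Over so many checks, about as many gaps as are listed here would arise by chance. In untreated neurons alone, replicate 1, a library of the first codes, had an astrocyte level of 8.45, against 6.70 to 6.97 in the others. The same library had a presynaptic level of 6.48, against 7.64 to 7.87. In loaded neurons alone, replicate 4 had an inhibitory-neuron level of 3.44, against 1.14 to 1.32 in the others. That library also had a level of 5.39 for genes of actin protrusions and tunnelling nanotubes, against 6.01 to 6.10.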

How the results depend on the processing

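None of the counts, list medians and named-gene values recomputed here changed direction under the alternatives tried, but the split of calls and other list medians did. Poor co-cultures against neurons alone gave 135 higher and 131 lower genes, against 125 and 144 with DESeq2 size factors and 238 and 78 with library totals. Within loaded and untreated co-cultures the median log2 difference of rich minus poor libraries was -2.01 and 0.24 for cell-cycle genes (-1.07 over both), 0.25 and -0.64 for astrocyte genes (-0.32) and -0.92 and 1.06 for inhibitory-neuron genes (0.12). The gained and lost genes, 93 and 83, numbered 162 and 174 at a factor of 2, 556 and 1038 within loaded co-cultures only, and 369 and 697 within untreated co-cultures only, where 1 rich library has to pass the rule in place of 2. Leaving out 1 co-culture library at a time gave 100 to 293 gained and 96 to 600 lost genes. Those counts were 293 and 600 without the untreated rich library and 211 and 330 without the loaded one, and 139 genes were lost without loaded co-culture replicate 2. The median log2 difference of the microglial identity list, 4.39, was 3.72 with no filter, 5.79 with a prior count of 0.5, 5.41 and 5.30 within loaded and untreated co-cultures, and 4.18 to 5.55 with 1 library left out. That of the immediate early genes, -3.90, was -1.65 after subtraction of the difference in neurons alone, -5.52 and -2.47 within loaded and untreated co-cultures, and -5.72 to -2.35 with 1 library left out. First against later codes in neurons alone gave 0 calls with edgeR, 6 with no filter, 434 with DESeq2, 51 with limma-voom, and 0 to 47 with 1 library left out. Poor co-cultures against neurons alone gave 266 calls with edgeR, 898 with DESeq2, 582 with limma-voom, and 131 to 455 with 1 library left out. With the replicate number as a block, 309 genes were called. Between neurons alone and co-cultures of later codes, the only pairs compared, libraries that share a number did not deviate together, with correlations from -0.13 to 0.09, so the numbers were not used to pair them. Where a rich library was left out, the remaining 1 was taken alone. Patchy detection and a spread between libraries larger than sampling noise limit all values, and 2 rich libraries cannot show how loaded and untreated co-cultures differ.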
